A study of Mus musculus with 2 samples.

Results

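The genes described here carry, receive or restrain Wnt signals. They were taken from the deposited tables by symbol, as every Wnt, Fzd, Sfrp, Dkk, Rspo, Tcf7, Axin1 and Axin2, Lrp5 and Lrp6, and Lgr4 to Lgr6 gene, with Wif1, Porcn, Ctnnb1 and Lef1. The rule found 55 of the 20634 listed genes, and 35 of them were at 1 FPKM or more in at least 1 library. FPKM is a fragment count scaled to the length of the transcript and the size of the library. Of these, Fzd4 passed that level in f/f alone and the other 34 in both libraries. RNA-seq was done on whole uterus of pregnant female mice mated at 6 to 8 weeks of age and killed on gestational day 4, with the vaginal plug counted as day 1. There was 1 library of genotype Mettl3 ed/ed and 1 of genotype Mettl3 f/f, so no difference below has a replicate check. The number of animals behind a library, their strain and the meaning of ed and f are not given in the labels. Mettl3 encodes the catalytic subunit of the m6A RNA methyltransferase.

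Wnt proteins are secreted ligands that are acylated by Porcn in the endoplasmic reticulum before export. They bind Frizzled receptors, and with the co-receptors Lrp5 or Lrp6 they stop the Axin complex from marking beta-catenin for destruction, so that beta-catenin can reach the nucleus and act with TCF/LEF factors. In the mouse uterus, Wnt signals pattern the Müllerian duct, are needed for gland formation and take part in implantation and decidualization.

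Both libraries carried epithelial, stromal, vascular and muscle markers, the tissue on the labels being whole uterus. Mettl3 itself was at 10.2 FPKM in the library labelled ed/ed and 10.6 FPKM in the library labelled f/f, so its transcript level did not tell the libraries apart and every direction below rests on the labels. Depth, inferred from how low values were spaced, was 17600000 fragments for ed/ed and 18100000 for f/f. Differences are given as a log2 ratio between the libraries, ed/ed over f/f, after 1 FPKM was added to both values, which understates differences of low genes. A log2 ratio of 1 or more in size, that is 2-fold, was called higher or lower as a rule of size, since no test was possible. Over the 12165 genes of the tables that reached 1 FPKM somewhere, called expressed here, the median log2 ratio was -0.26 (SD 0.58 across genes). Where a trend with transcript length is said to be removed below, this shift of all genes is removed with it. Counting intervals are 95% intervals of the plain ratio of ed/ed FPKM to f/f FPKM from estimated fragments. They cover counting error only and not the spread between animals or libraries, and PCR copies are counted as separate fragments.

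Of the 35 expressed genes, 4 were at least 2-fold lower in ed/ed and 0 were 2-fold higher. The ligand genes Wnt16 and Wnt6, the receptor gene Fzd1 and the antagonist gene Sfrp2 made up the lower group. Among all expressed genes 6.22% were at least 2-fold lower and 2.68% at least 2-fold higher, so the module held 4 lower genes (11.4%) on a background of the same direction. Scaling moved this split: under median-ratio and under upper-quartile scaling 1 member was higher and 2 were lower, and under reference-gene scaling 1 was higher and 1 lower, when 5.73% of all genes were higher and 2.73% lower. The median log2 ratio of the 35 genes was -0.37, which is -0.11 from the median of all genes. Log2 ratios lay below 0 for 27 of 35 members (77.1%), against 70.4% of all expressed genes. The module as a whole therefore stood close to the rest of the transcriptome, and its genes differed among themselves, from -1.29 for Wnt16 to 0.86 for Fzd5. The FPKM of all 55 genes summed to 623 in ed/ed and 847 in f/f. Beta-catenin gene Ctnnb1 and Fzd6 together supplied 50.1% of that sum in ed/ed and 49.7% in f/f.

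**Figure D1:**
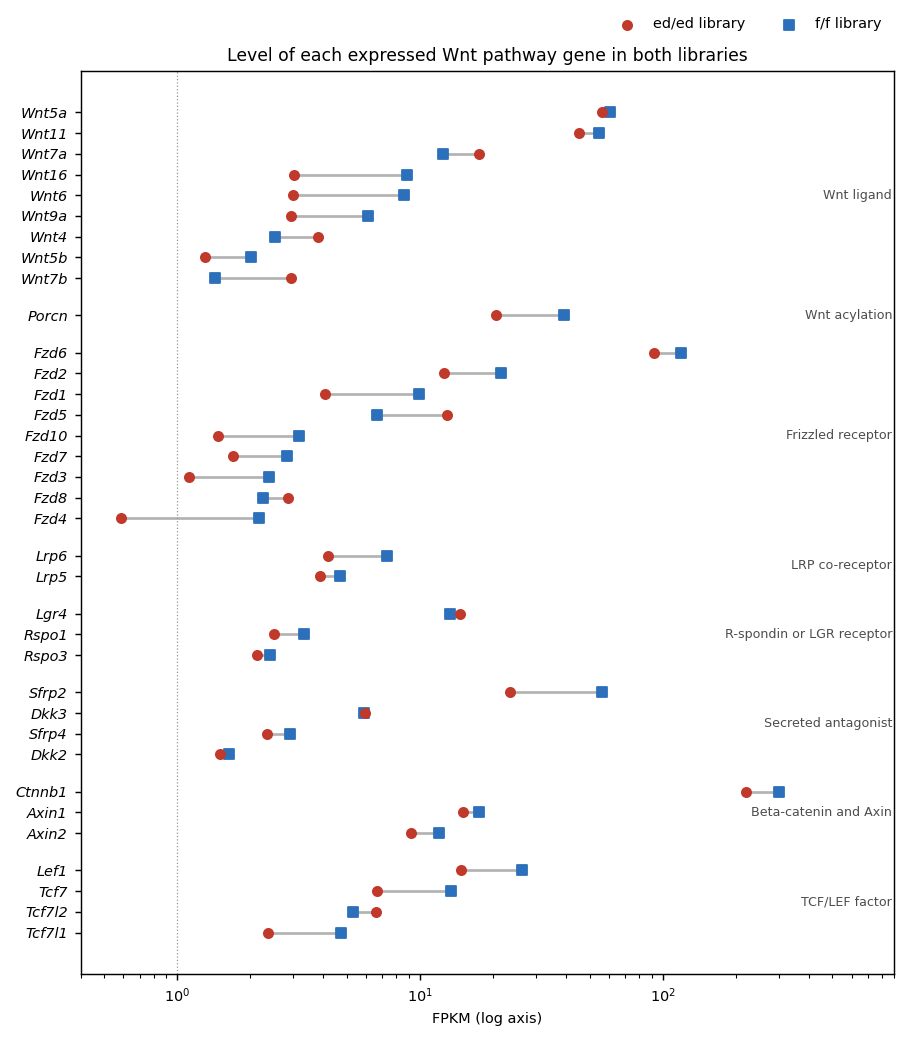
FPKM of the 35 expressed genes on a log axis, grouped by role, with circles for the ed/ed library and squares for the f/f library (1 library each, no error bars). Ctnnb1 lies furthest right in both libraries, followed by Fzd6, and the circle lies right of the square for 8 genes, among them Fzd5, Wnt7a, Wnt7b and Wnt4.

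The promoters of the 4 genes called lower and of Fzd5, the gene with the highest ratio, are shown so that the genes at both ends of the range can be compared. Each is the RefSeq window from 250 bases before to 50 bases after an annotated start on GRCm38.p6, printed 5′ to 3′ on the strand of the gene, with every CG dinucleotide in capitals.
Wnt16 (chr6:22287977-22288276, + strand): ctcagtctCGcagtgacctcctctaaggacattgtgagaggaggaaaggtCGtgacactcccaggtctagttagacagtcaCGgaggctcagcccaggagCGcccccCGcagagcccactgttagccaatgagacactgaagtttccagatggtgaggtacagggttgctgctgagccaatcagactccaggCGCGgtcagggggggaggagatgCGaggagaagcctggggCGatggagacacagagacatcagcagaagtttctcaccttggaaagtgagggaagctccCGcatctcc
Wnt6 (chr1:74771642-74771941, + strand): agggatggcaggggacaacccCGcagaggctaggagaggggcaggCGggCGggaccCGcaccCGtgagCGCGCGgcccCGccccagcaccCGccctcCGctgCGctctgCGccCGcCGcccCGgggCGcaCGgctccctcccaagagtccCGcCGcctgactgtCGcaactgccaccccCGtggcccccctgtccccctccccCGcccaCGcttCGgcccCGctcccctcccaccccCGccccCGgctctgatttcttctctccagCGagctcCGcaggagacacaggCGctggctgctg
Sfrp2 (chr3:83766071-83766370, + strand): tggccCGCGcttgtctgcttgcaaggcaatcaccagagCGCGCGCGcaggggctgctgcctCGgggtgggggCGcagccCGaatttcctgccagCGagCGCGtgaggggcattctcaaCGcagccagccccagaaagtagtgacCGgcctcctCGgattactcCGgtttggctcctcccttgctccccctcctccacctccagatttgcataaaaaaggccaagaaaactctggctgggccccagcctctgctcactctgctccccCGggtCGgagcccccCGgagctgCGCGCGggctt
Fzd1 (chr5:4758167-4758466, - strand): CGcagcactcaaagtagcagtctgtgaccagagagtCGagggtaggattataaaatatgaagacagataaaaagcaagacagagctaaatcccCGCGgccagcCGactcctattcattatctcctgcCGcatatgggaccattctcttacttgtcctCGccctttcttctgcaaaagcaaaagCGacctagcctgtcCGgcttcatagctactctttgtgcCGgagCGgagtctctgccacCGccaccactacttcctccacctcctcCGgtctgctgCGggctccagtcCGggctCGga
Fzd5 (chr1:64737701-64738000, - strand): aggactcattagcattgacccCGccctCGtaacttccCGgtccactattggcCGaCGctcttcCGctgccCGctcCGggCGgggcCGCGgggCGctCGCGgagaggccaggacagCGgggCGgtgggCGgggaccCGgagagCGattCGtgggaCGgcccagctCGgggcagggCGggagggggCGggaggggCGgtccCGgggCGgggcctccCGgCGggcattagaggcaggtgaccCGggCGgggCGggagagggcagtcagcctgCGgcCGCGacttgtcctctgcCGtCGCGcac
The window of Wnt16 holds 10 CG dinucleotides, that of Wnt6 31, that of Sfrp2 22 and that of Fzd1 16. Fzd5 has 38. The median of all 32851 windows, which were not limited to expressed genes, was 7, and 94.6% of them held at least 1 CG. The median of the 31 windows of expressed members was 29. These medians are of unlike sets, and a gene with several starts counts more than once. Wnt16, Sfrp2 and Fzd1 lay below the members' median of 29 and Wnt6 above it. At least as many as Wnt16 were held by 43.5% of all windows. The share was 33.0% for Fzd1, 23.1% for Sfrp2, 10.6% for Wnt6 and 4.95% for Fzd5. Wnt9a, with a log2 ratio of -0.85, had 58, more than Fzd5. Whether the number of CG goes with the ratio was not tested. RefSeq windows were found for 22 of the 35 expressed genes. The TCF/LEF motif was searched as CTTTGAA or CTTTGAT on both strands, and none of the 5 windows above holds it. These forms differ in their last base and cannot overlap on the same strand. Of all windows 8.65% hold the motif, and of the members' windows 2 of 31 do, 1 of Wnt5b and 1 of Wnt11. In Wnt11, the second most abundant ligand gene, it lies on the opposite strand, starting 51 bases before the annotated start, and is printed in capitals.
Wnt11 (chr7:98834862-98835161, + strand): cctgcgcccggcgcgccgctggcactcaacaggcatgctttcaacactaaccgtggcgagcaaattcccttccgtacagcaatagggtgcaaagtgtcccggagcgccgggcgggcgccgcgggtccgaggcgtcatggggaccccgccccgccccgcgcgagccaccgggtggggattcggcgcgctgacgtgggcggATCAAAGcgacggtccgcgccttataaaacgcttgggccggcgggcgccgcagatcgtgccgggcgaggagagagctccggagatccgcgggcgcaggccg
A match describes the letters of the window and does not show that a factor binds there.

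Ligand genes covered a wide range of levels. Wnt5a, a ligand of the beta-catenin-independent branch that guides uterine epithelial orientation and crypt formation in mice, was the most abundant, at 56.2 FPKM in ed/ed and 60.6 FPKM in f/f. Wnt11, another ligand known mainly for that branch, was at 45.4 FPKM in ed/ed and 54.8 FPKM in f/f. These ligand genes differed by less than the 2-fold rule, and the log2 ratios of -0.11 for Wnt5a and -0.27 for Wnt11 turned positive under 3 and 2 of 4 other scalings. Wnt7a, which is made in the luminal epithelium and is needed for uterine patterning and glands, was the third in both libraries, at 17.6 FPKM in ed/ed and 12.5 FPKM in f/f. The other 6 expressed ligand genes were below 10 FPKM in both libraries. Over all 19 ligand genes the FPKM summed to 136 in ed/ed and 158 in f/f, and Wnt5a held 41.2% of that sum in ed/ed and 38.3% in f/f.

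Wnt16 and Wnt6 were the ligand genes called lower. Wnt16 (ENSMUSG00000029671, chromosome 6, 22288227 to 22298522, GRCm38), a ligand studied mostly in bone, was at 3.02 FPKM in ed/ed and 8.80 FPKM in f/f. The estimated fragments were 162 in ed/ed and 482 in f/f, and the plain ratio was 0.343 (counting interval 0.286 to 0.412). Its log2 ratio of -1.29 was the lowest of the module and kept to the 2-fold rule under all 4 other scalings and with the length trend removed. Wnt6 (ENSMUSG00000033227, chromosome 1, 74771892 to 74785322), a ligand expressed by decidualizing stroma in mice, was at 3.01 FPKM in ed/ed and 8.61 FPKM in f/f. That is 97 and 283 estimated fragments in ed/ed and f/f and a plain ratio of 0.349 (counting interval 0.276 to 0.443). The log2 ratio of Wnt6 was -1.26, and -0.98 under reference-gene scaling, just inside 2-fold. Wnt9a was at 2.93 FPKM in ed/ed and 6.10 FPKM in f/f, with a log2 ratio of -0.85. Wnt5b, a close relative of Wnt5a, was at 1.30 FPKM in ed/ed and 2.02 FPKM in f/f, with a log2 ratio of -0.39.

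Wnt7a, Wnt7b and Wnt4 had higher FPKM in ed/ed, each within 2-fold on the log2 scale. Wnt7a had a log2 ratio of 0.46 and a plain ratio of 1.41 (counting interval 1.27 to 1.56). Wnt7b, the paralog of Wnt7a, was at 2.95 FPKM in ed/ed and 1.43 FPKM in f/f, a plain ratio of 2.06 (counting interval 1.56 to 2.70) and a log2 ratio of 0.70. Wnt4, which is required for decidualization and uterine gland development in mice, was at 3.80 FPKM in ed/ed and 2.53 FPKM in f/f, with a log2 ratio of 0.44. All 3 stayed positive under the 4 other scalings, which gave 0.76 to 0.98 for Wnt7b and 0.51 to 0.74 for Wnt4. Among all expressed genes, 90.6% had a lower log2 ratio than Wnt7a, 94.5% than Wnt7b and 90.1% than Wnt4. With these opposite differences the order of the minor ligand genes was not the same, and Wnt4 ranked 4 in ed/ed and 7 in f/f whereas Wnt9a ranked 8 in ed/ed and 6 in f/f. The ed/ed ranks 5 to 8 (Wnt16, Wnt6, Wnt7b and Wnt9a) span only 3.02 to 2.93 FPKM, so their order is close to a tie. Porcn, the acyltransferase that every Wnt protein of vertebrates is thought to need for secretion, was at 20.6 FPKM in ed/ed and 39.4 FPKM in f/f, a plain ratio of 0.522 (counting interval 0.472 to 0.577). The log2 ratio of Porcn was -0.91, within 2-fold, and lay between -0.82 and -0.56 under the other scalings.

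Among receptors, Fzd6 dominated and Fzd5 and Fzd1 differed in opposite directions. Fzd6, a receptor linked to the beta-catenin-independent branch, was at 92.0 FPKM in ed/ed and 119 FPKM in f/f, and supplied 71.1% of all Frizzled FPKM in ed/ed and 70.0% in f/f. Its log2 ratio of -0.37 shrank to -0.01 under reference-gene scaling. Fzd5 (ENSMUSG00000045005, chromosome 1, 64730558 to 64737751), a receptor that serves beta-catenin signalling in the gut epithelium of mice, was at 13.0 FPKM in ed/ed and 6.67 FPKM in f/f. The estimated fragments were 1523 in ed/ed and 803 in f/f, and the plain ratio was 1.94 (counting interval 1.78 to 2.12). The log2 ratio of Fzd5 was 0.86, above that of 96.3% of all expressed genes. It passed 2-fold at 1.13, 1.08 and 1.20 under median-ratio, upper-quartile and reference-gene scaling, and at 1.26 with the length trend removed. Fzd1 (ENSMUSG00000044674, chromosome 5, 4753839 to 4758035) was at 4.05 FPKM in ed/ed and 9.91 FPKM in f/f, with 282 estimated fragments in ed/ed and 706 in f/f. Its plain ratio was 0.409 (counting interval 0.355 to 0.470). The log2 ratio of -1.11 was -0.87, -0.92 and -0.81 under median-ratio, upper-quartile and reference-gene scaling and -0.81 with the length trend removed, so the call of Fzd1 rests on the deposited scale or the sum scaling.

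Of the 9 expressed Frizzled genes, 7 had a log2 ratio below 0 under the deposited scale and all 4 others, and Fzd5 and Fzd8 were above 0 under each. As deposited that is 77.8% below 0, close to the 70.4% of all genes. The median log2 ratio of the class was -0.68, which is -0.42 from the median of all genes, and -0.21 with the length trend removed. Fzd2 was at 12.5 FPKM in ed/ed and 21.7 FPKM in f/f, the second highest Frizzled level in f/f and the third in ed/ed. Fzd10 was at 1.48 FPKM in ed/ed and 3.17 FPKM in f/f. Fzd7 was at 1.70 FPKM in ed/ed and 2.85 FPKM in f/f, and Fzd8 at 2.87 FPKM in ed/ed and 2.26 FPKM in f/f. Fzd3, whose transcript of 12734 nt was the longest of the module, was at 1.12 FPKM in ed/ed and 2.39 FPKM in f/f. The log2 ratio of Fzd3 was -0.68, which is -0.42 from the median of all genes, and -0.21 with the length trend removed. Fzd4 lay just inside the rule, with a log2 ratio of -0.998, at 0.588 FPKM in ed/ed and 2.17 FPKM in f/f. The plain ratio of Fzd4, 0.271 (counting interval 0.203 to 0.355), was the lowest of the expressed members. Its log2 ratio was not, because the added 1 FPKM weighs most on low genes. Fzd4 passed the 1 FPKM level in f/f alone, and a gene that does so must have a plain ratio below 1.

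Fzd4 is the receptor for norrin in vessels of the retina, where norrin (Ndp), the tetraspanin Tspan12 and Lrp5 act with it. Ndp was at 10.1 FPKM in ed/ed and 17.4 FPKM in f/f. Tspan12 was at 1.68 FPKM in ed/ed and 2.16 FPKM in f/f, with a log2 ratio of -0.24 that turned positive under 1 of 4 other scalings. Lrp5 was at 3.89 FPKM in ed/ed and 4.67 FPKM in f/f, and its log2 ratio of -0.21 turned positive under 2 of 4 other scalings. The other Wnt co-receptor gene, Lrp6, was at 4.17 FPKM in ed/ed and 7.34 FPKM in f/f. The log2 ratio of Lrp6 was -0.69, which is -0.43 from the median of all genes, and -0.25 with the length trend removed.

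R-spondins are secreted proteins that bind Lgr4, Lgr5 and Lgr6 and keep Frizzled receptors on the cell surface. Rspo1 was at 2.49 FPKM in ed/ed and 3.34 FPKM in f/f, and Rspo3 at 2.13 FPKM in ed/ed and 2.42 FPKM in f/f. The counting intervals of both R-spondin ratios spanned 1. Lgr4, the main receptor of this class here, was at 14.6 FPKM in ed/ed and 13.3 FPKM in f/f. Lgr5, which marks gland stem cells in the uterus, was at 0.399 FPKM in ed/ed and 0.217 FPKM in f/f, under the level needed for a ratio. The ubiquitin ligase genes that R-spondins restrain, Rnf43 and Znrf3, were at 4.28 and 4.37 FPKM in ed/ed and at 4.31 and 4.25 FPKM in f/f.

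Sfrp2 was the antagonist gene that stood out. Secreted Frizzled-related proteins bind Wnt ligands outside the cell. Sfrp2 (ENSMUSG00000027996, chromosome 3, 83766321 to 83774316) was at 23.6 FPKM in ed/ed and 56.05 FPKM in f/f, with 729 estimated fragments in ed/ed and 1773 in f/f and a plain ratio of 0.420 (counting interval 0.386 to 0.459). The log2 ratio of Sfrp2 was -1.22, and -0.93, -0.996 and -0.86 under median-ratio, upper-quartile and reference-gene scaling, each just inside 2-fold. It made up 69.9% of the FPKM of the 9 antagonist genes in ed/ed and 83.9% in f/f. The other 3 expressed antagonist genes had log2 ratios from -0.22 to 0.01. Dkk3 was at 5.94 FPKM in ed/ed and 5.89 FPKM in f/f, Sfrp4 at 2.35 FPKM in ed/ed and 2.91 FPKM in f/f, and Dkk2 at 1.5 FPKM in ed/ed and 1.64 FPKM in f/f. The counting intervals of Dkk2 and Dkk3 spanned 1. Dkk1, which blocks Lrp5 and Lrp6, Dkk4, Sfrp5 and Wif1 were listed at 0 in both libraries.

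Inside the cell, Ctnnb1 (chromosome 9, 120929216 to 120960507), which encodes beta-catenin, a part of adherens junctions as well as the Wnt effector, was the most abundant member. It was at 220.1 FPKM in ed/ed and 302 FPKM in f/f, and its log2 ratio of -0.45 stayed below 0 under all 4 other scalings, from -0.37 to -0.09. Axin1, the scaffold of the destruction complex, was at 15.0 FPKM in ed/ed and 17.5 FPKM in f/f. Axin2, a feedback scaffold widely used as a readout of beta-catenin signalling, was at 9.16 FPKM in ed/ed and 12.02 FPKM in f/f. The log2 ratio of Axin2, -0.36, was -0.10 from the median of all genes, and shrank to -0.03 under reference-gene scaling. Of all expressed genes, 54.7% had a lower log2 ratio than Axin1 and 41.1% a lower one than Axin2.

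Of the TCF/LEF factors, which bind DNA for beta-catenin, 3 of 4 had log2 ratios below 0, against 70.4% of all genes, and none passed 2-fold on that scale, although the plain ratios of Tcf7 and Tcf7l1 were 0.498 and 0.499. Lef1 was at 14.8 FPKM in ed/ed and 26.3 FPKM in f/f, with a log2 ratio of -0.79. Tcf7, also called TCF1, was at 6.68 FPKM in ed/ed and 13.4 FPKM in f/f, with a log2 ratio of -0.91. Tcf7l1, which acts mostly as a repressor, was at 2.36 FPKM in ed/ed and 4.73 FPKM in f/f, with a log2 ratio of -0.77. These 3 genes stayed below 0 under the 4 other scalings. Tcf7l2, the main factor of gut epithelium, was at 6.60 FPKM in ed/ed and 5.30 FPKM in f/f, a plain ratio of 1.25 (counting interval 1.07 to 1.45). The median of the class was -0.78, which is -0.52 from the median of all genes. With the length trend and the shift of all genes removed it was -0.53.

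**Figure D2:**
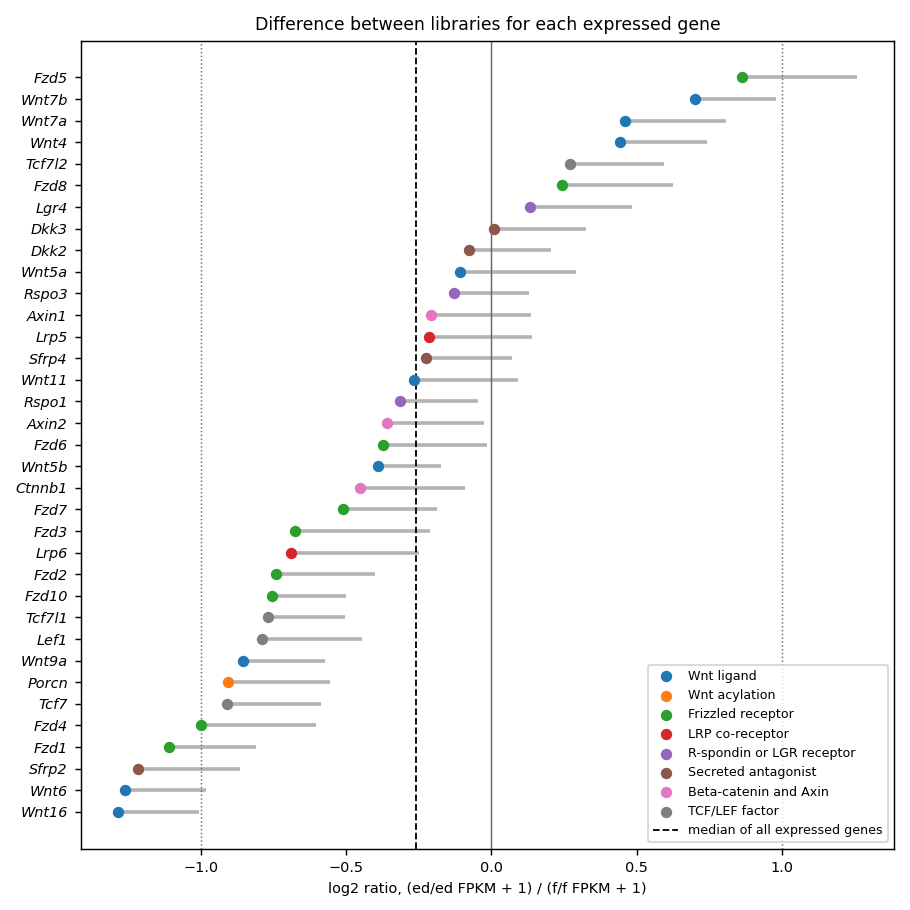
Log2 ratio of ed/ed to f/f, with 1 FPKM added to both, for the 35 expressed genes, coloured by role. Points are the values as deposited and grey bars span these, 4 other scalings and removal of the length trend; the dashed line is the median of all expressed genes, -0.26, and the dotted lines mark 2-fold. Wnt16 to Fzd1 lie beyond the lower dotted line, and Fzd5 is the only gene whose bar crosses the upper one.

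Whole uterus mixes cell types, and in a bulk library fewer cells of a type and less RNA per cell cannot be told apart. Several marker lists differed along with the Wnt genes, to be read against all expressed genes, of which 6.22% were 2-fold lower, 2.68% 2-fold higher and 70.4% below 0. All 13 stroma markers had log2 ratios below 0 and 4 were at least 2-fold lower. Of these 4, Pdgfra stayed 2-fold lower under all 4 other scalings, Col3a1 under 3, Col1a1 under 1 and Hand2 under 0. The 13 summed to 700.5 FPKM in ed/ed and 1365 FPKM in f/f. All 10 endothelial markers were below 0 and 7 were 2-fold lower, summing to 104 FPKM in ed/ed and 235 FPKM in f/f. Of the 7, Cdh5 and Tek stayed 2-fold lower under all 4 other scalings, Tie1 under 3 and Eng under 2. Pecam1 and Kdr did under 1 and Cldn5 under 0. The 12 general epithelial markers had 7 ratios above 0 and 5 below, summing to 2969 FPKM in ed/ed and 2903 FPKM in f/f. The 7 luminal markers, of which Wnt7a is 1, had a median log2 ratio of 0.42 but summed to 1196 FPKM in ed/ed and 1335 FPKM in f/f. Of 8 glandular markers, 5 were expressed and 4 of these were above 0, summing over all 8 to 53.2 FPKM in ed/ed and 25.5 FPKM in f/f. Sox9 and Foxa2, among the 4, reached 1 FPKM in ed/ed alone, so passing the filter in this way fixed their direction. Aldh1a1 was below 0, and Spink1 supplied 67.6% of the glandular sum in ed/ed and 61.4% in f/f. The gland markers Prss28 and Prss29 were listed at 0 in both libraries, and Lif was listed at 0 in f/f and at 0.703 FPKM in ed/ed. Of 10 myometrial markers 9 were above 0, summing to 958 FPKM in ed/ed and 587 FPKM in f/f. The 7 macrophage markers summed to 233 FPKM in ed/ed and 113 FPKM in f/f, the 6 of T and NK cells to 11.6 FPKM in ed/ed and 10.6 FPKM in f/f, and the 4 of mesothelium to 18.9 FPKM in ed/ed and 21.7 FPKM in f/f. Each of these 3 sums came mostly from 1 gene. Lyz2 held 81.0% of the macrophage sum in ed/ed and 76.4% in f/f. Of the 6 expressed macrophage markers, 4 were above 0 and 2 below. Nkg7 held 61.4% of the T and NK cell sum in ed/ed and 57.4% in f/f. Wt1 held 94.3% of the mesothelium sum in ed/ed and 92.3% in f/f. The part of the marker differences in the values of Wnt16, Wnt6, Sfrp2, Fzd1, Fzd4 or Fzd5 was not tested.

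**Figure D3:**
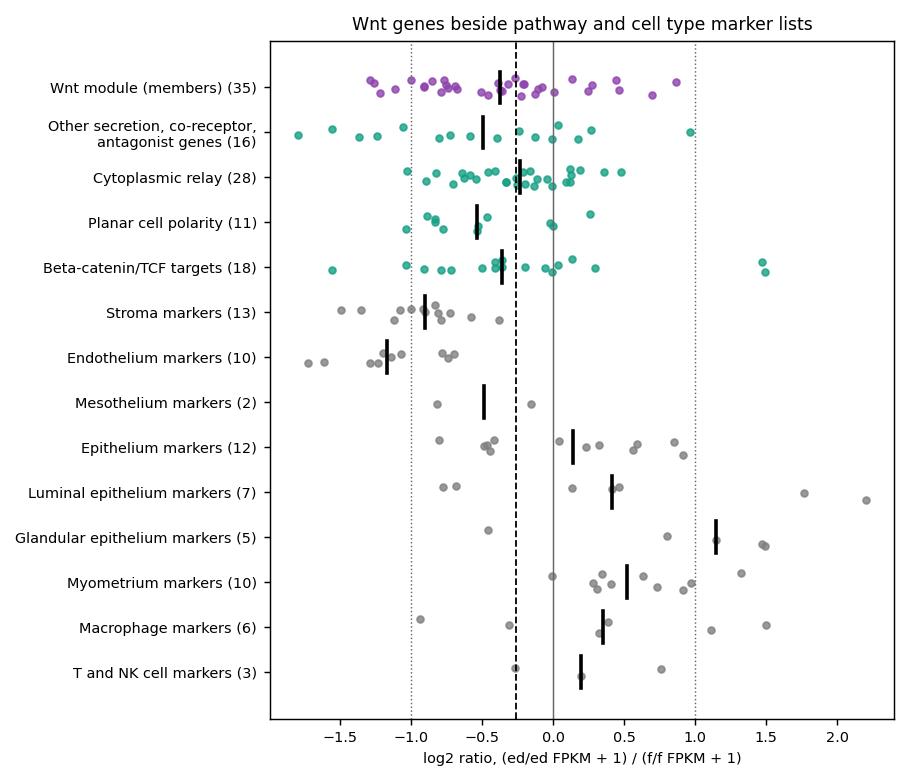
Log2 ratio of ed/ed to f/f, with 1 FPKM added to both, for each expressed gene of the Wnt module, 4 pathway lists and 9 cell type marker lists, with the number of genes in brackets; vertical jitter is random. Thick bars are list medians, the dashed line is the median of all expressed genes and the dotted lines mark 2-fold; the stroma and endothelium medians, -0.90 and -1.17, lie left of that of the Wnt module, -0.37.

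Pathway genes outside the module were read from 4 lists. Of 75 such genes 66 were expressed, and 8 were at least 2-fold lower (12.1%, against 6.22% of all genes) and 2 at least 2-fold higher (2.68% of all genes). The median log2 ratio of these 66 was -0.34. Under reference-gene scaling 4 were higher and 3 lower, when 5.73% of all genes were higher and 2.73% lower. Of the 66, Cthrc1, Intu and Notum passed the 1 FPKM level in f/f alone and Draxin, Foxa2 and Sox9 in ed/ed alone. Both genes called higher, Sox9 and Foxa2, are among the latter, so passing in this way fixed their direction. In the list of secretion factors, co-receptors and antagonists, 5 of 16 expressed genes were 2-fold lower (31.2%, against 6.22% of all genes) and 0 were higher. Cthrc1 and Notum, which passed in f/f alone, are among the 5. The counts of 5 and 8 lower genes thus include genes whose direction was fixed by how they passed, and nothing is read from their shares. Apcdd1, a membrane inhibitor of Wnt signalling, was the most abundant of the 5, at 42.4 FPKM in ed/ed and 101 FPKM in f/f. Notum, a secreted enzyme that strips the lipid from Wnt proteins, was at 0.343 FPKM in ed/ed and 2.94 FPKM in f/f. Kremen1, a receptor for Dickkopf proteins, was at 4.78 FPKM in ed/ed and 11.0 FPKM in f/f. Gpc3, a cell-surface glypican, was at 1.84 FPKM in ed/ed and 6.30 FPKM in f/f, and Cthrc1, a secreted matrix protein gene, was listed at 0 in ed/ed and was at 2.47 FPKM in f/f. Of these 5, Cthrc1, Notum and Gpc3 stayed 2-fold lower under all 4 other scalings, Apcdd1 did under 2 and Kremen1 under 0. Without the length trend the log2 ratios of Apcdd1 and Kremen1 were -0.78 and -0.72, within 2-fold. Draxin, a secreted antagonist, had a log2 ratio of 0.96, at 1.70 FPKM in ed/ed and 0.385 FPKM in f/f. Wls, the carrier that takes Wnt proteins to the surface after Porcn has acted, was at 53.6 FPKM in ed/ed and 70.8 FPKM in f/f, with a log2 ratio of -0.39.

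The cytoplasmic relay stood closest to the median of all genes among the 4 lists. Of its 28 expressed genes 1 was 2-fold lower (3.57%, against 6.22% of all genes) and 0 were higher, and the median log2 ratio was -0.23, against -0.26 for all genes. The lower gene was Tnks, a tankyrase that promotes Axin breakdown, at 2.196 FPKM in ed/ed and 5.51 FPKM in f/f, with a log2 ratio of -1.03. It lay within 2-fold under all 4 other scalings and, at -0.59, without the length trend. Btrc, which recognises phosphorylated beta-catenin, was at 1.89 FPKM in ed/ed and 4.36 FPKM in f/f. Amer1, a partner of Apc, was at 4.05 FPKM in ed/ed and 7.91 FPKM in f/f. Cby1, which binds beta-catenin and holds it back, was at 9.22 FPKM in ed/ed and 15.6 FPKM in f/f. Apc itself was at 11.8 FPKM in ed/ed and 11.9 FPKM in f/f.

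Planar cell polarity genes, which orient cells within an epithelium, had a median log2 ratio of -0.53 over 11 expressed genes, with 1 gene 2-fold lower (9.09%, against 6.22% of all genes) and 0 higher. That gene, Daam2, a formin that acts with Dishevelled, was at 2.43 FPKM in ed/ed and 6.03 FPKM in f/f. Its log2 ratio of -1.04 lay within 2-fold under all 4 other scalings and, at -0.76, without the length trend. Prickle1 was at 6.65 FPKM in ed/ed and 12.6 FPKM in f/f, Prickle2 at 2.69 FPKM in ed/ed and 5.54 FPKM in f/f, and Fuz at 8.01 FPKM in ed/ed and 15.6 FPKM in f/f. The core genes Vangl1 and Vangl2 were at 10.5 and 10.1 FPKM in ed/ed and at 10.6 and 10.1 FPKM in f/f. The median of this list was -0.27 from that of all genes, and with the length trend removed it was -0.14.

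The fourth list held transcripts known to respond to beta-catenin and TCF. It shares 4 genes with the module, Axin2, Lef1, Tcf7 and Lgr5, of which Lgr5 was not expressed. Of 18 expressed targets, 13 had a log2 ratio below 0 (72.2%, against 70.4% of all genes), Axin2, Lef1 and Tcf7 among them. The median of the 18 was -0.36. The rule placed 2 below and 2 above 2-fold, but Notum passed the 1 FPKM level in f/f alone and Sox9 and Foxa2 in ed/ed alone. Passing in this way fixed the direction of these 3 calls, and nothing is read from the split. The other call, Cd44, a hyaluronan receptor, was at 9.79 FPKM in ed/ed and 21.1 FPKM in f/f, with a log2 ratio of -1.03 that lay within 2-fold under all 4 other scalings and, at -0.66, without the length trend. Sox9 and Foxa2, which are also transcription factors of uterine glands, had log2 ratios of 1.47 and 1.49. Myc was at 27.99 FPKM in ed/ed and 37.4 FPKM in f/f, and Ccnd1, which encodes cyclin D1, at 13.2 FPKM in ed/ed and 13.7 FPKM in f/f. Nkd1, a feedback inhibitor, was at 6.56 FPKM in ed/ed and 7.69 FPKM in f/f. Sp5, a target gene that was under 1 FPKM, was at 0.722 FPKM in ed/ed and 0.0880 FPKM in f/f.

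Log2 ratios also went with transcript length. Across 12111 expressed genes with a coding transcript, log2 ratio and transcript length had a Spearman rho of -0.22, given as a description since genes share both libraries. Among 10 groups of genes by length, the shortest had a median of -0.01 and the longest one of -0.43. The expressed Wnt genes had a median length of 3663 nt, against 3097 nt for all genes. After a smooth length trend was subtracted, which also centres the ratios near 0, the median of the 35 genes was -0.14. Wnt16, Wnt6 and Sfrp2 then remained past 2-fold at -1.03, -1.07 and -1.03, and Fzd5, at 1.26, was higher.

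**Figure D4:**
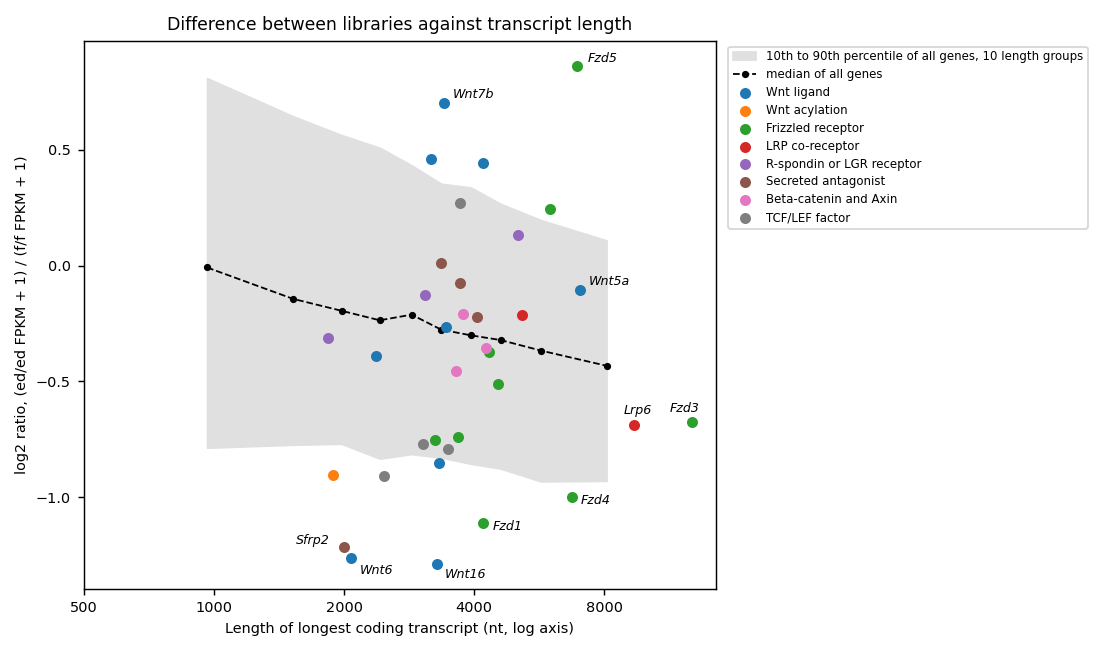
Log2 ratio of ed/ed to f/f, with 1 FPKM added to both, against the length of the longest coding transcript (nt, log axis) for the 35 expressed genes, coloured by role. The dashed line joins the medians of 10 groups of all expressed genes by length, from -0.01 to -0.43, and the grey band spans their 10th to 90th percentiles; 8 members lie below the band of their own length group (Wnt16, Wnt6, Sfrp2, Fzd1, Fzd4, Tcf7, Porcn and Wnt9a) and 5 above it (Fzd5, Wnt7b, Wnt7a, Wnt4 and Fzd8).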

How the data were processed

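TRIzol was used to extract RNA and a TruSeq RNA kit (Illumina) to build the libraries, per the labels' protocols. The deposited values were taken as FPKM made by the authors, since Cufflinks 2.2.1, named with HISAT2 2.2.1 in the submitters' processing notes, writes FPKM. The headers name no unit. Both mm9 and mm10 appear in the notes, and which of them served is open. The sources used here give neither annotation nor filters. The same holds for strand: without it, antisense reads count with the gene, and 17 of the 35 expressed members overlap an annotated gene on the opposite strand. An exact 0 can be a failed estimate.

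Members and gene lists were chosen with earlier results of these data known, so none is independent evidence. Every member at 1 FPKM or more in either library is named. Pathway genes outside the module are named when at least 2-fold apart or among the 4 largest absolute ratios of their list; others named were chosen after their values were seen. The log2 ratio used a pseudocount of 1 FPKM. Each genotype has 1 library, so no p-value was computed.

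Transcript lengths and gene positions came from GENCODE M21 (GRCm38), matched on Ensembl identifier for 20557 genes, and locate genes, not reads. Depth came from the spacing of low FPKM multiplied by effective length, the transcript length less 250 nt, in single-transcript genes over 1000 nt. With 200 or 300 nt subtracted it was 17100000 to 18000000 fragments for ed/ed and 17700000 to 18500000 for f/f. Fragments of each member were estimated from that depth, and exact binomial intervals (Clopper-Pearson) of their split gave the counting intervals. The depth, ratio and length steps were checked on simulated data. The simulation used the same 250 nt and a single length per gene, and the spacing was sought only within a preset range. It therefore does not check these assumptions, on which the depth and the counting intervals of the real libraries rest. The length trend is a lowess curve (fraction 0.3, length on a log2 axis), fitted in statsmodels 0.14.6, with pandas 2.3.3, numpy 2.4.6 and scipy 1.17.1 under Python 3.11.15. Alternatives were pseudocounts of 0.1 and 5 FPKM, no filter, a filter at 5 FPKM, a 1.5-fold rule, 4 scalings (library sum, median ratio, upper quartile and 11 reference genes) and removal of the length trend.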

Additional observations from a re-analysis of the deposited data

How the results depend on the processing

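With 1 library per genotype the results could not be checked by leaving out a replicate. No paired analysis was possible because each genotype has 1 library. The other scalings raised every plain ratio, by 0.09 (library sum), 0.23 (upper quartile), 0.29 (median ratio) and 0.36 (reference genes) on the log2 scale. Members at least 2-fold lower numbered 4 as deposited, 2 under median-ratio and under upper-quartile scaling (Wnt16 and Wnt6), 1 under reference-gene scaling (Wnt16), 8 with a pseudocount of 0.1 FPKM, 1 with 5 FPKM (Sfrp2) and 14 under a 1.5-fold rule. The shares of all genes lower were then 3.20%, 3.65%, 2.73%, 11.0%, 1.70% and 23.4%, in that order. Members at least 2-fold higher numbered 0 as deposited, 1 (Fzd5) under each of median-ratio, upper-quartile and reference-gene scaling and without the length trend, and 2 (Fzd5 and Wnt7b) under the 1.5-fold rule. The shares of all genes higher were 2.68%, 4.85%, 4.24%, 5.73%, 4.31% and 7.04%, in that order. The median log2 ratio of -0.37 was -0.15 under upper-quartile, -0.10 under median-ratio and -0.05 under reference-gene scaling, -0.14 without the length trend, -0.25 with a pseudocount of 5 FPKM and -0.27 without a filter. It stayed between -0.07 and -0.20 from the median of all genes in all 10 alternatives. Pathway genes outside the module that were 2-fold lower numbered 8 as deposited, 4 under sum and upper-quartile scaling, 3 under median-ratio and reference-gene scaling and without the length trend, 1 with a pseudocount of 5 FPKM and 21 under the 1.5-fold rule. Those 2-fold higher numbered 2, against 4 under median-ratio, upper-quartile and reference-gene scaling and 0 with a pseudocount or filter of 5 FPKM. The shares of all genes given above for these settings apply here too. Of all genes, 4.99% were lower under sum scaling and 2.84% without the length trend. With a pseudocount of 5 FPKM 0.92% were higher, and with a filter at 5 FPKM 2.40%. No member called 2-fold changed sign in any alternative. The sign of 7 members within 2-fold (Wnt11, Sfrp4, Lrp5, Axin1, Rspo3, Wnt5a and Dkk2) turned under at least 1 scaling. Counting error leaves the direction of 4 members unresolved as deposited (Rspo1, Rspo3, Dkk2 and Dkk3).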

Other observations

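Members under 1 FPKM in both libraries numbered 20, of which 12 were listed at 0 in both and 8 had a value in at least 1. Lgr6, an R-spondin receptor, was at 0.508 FPKM in ed/ed and 0.0964 FPKM in f/f, about 58 and 11 estimated fragments in ed/ed and f/f. Wnt10a was at 0.136 FPKM in ed/ed and 0.633 FPKM in f/f, about 5 and 25 fragments. Wnt10a lies next to Wnt6 on chromosome 1 (74791516 to 74804179, GRCm38), and both had lower values in ed/ed. Sfrp1 was at 0.335 FPKM in ed/ed and 0.340 FPKM in f/f. Wnt2, Wnt2b and Fzd9 were listed at 0 in f/f and at or below 0.125 FPKM in ed/ed, and Wnt10b was listed at 0 in ed/ed and at 0.0821 FPKM in f/f. At these levels a few fragments decide the value. The ligand genes Wnt1, Wnt3, Wnt3a, Wnt8a, Wnt8b and Wnt9b, and the R-spondin genes Rspo2 and Rspo4, were listed at 0 in both libraries.

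Mettl3 methylates adenosines in a short sequence context of which GGACT is a common form. Counted on the longest coding transcript in GENCODE M21, 32 of the 35 expressed Wnt genes held at least 1 GGACT, against 92.4% of 12111 expressed genes. The median density was 1.16 per kilobase in the Wnt genes and 1.05 per kilobase in all genes. Sfrp2, called lower in ed/ed, and Porcn and Rspo1 held none. Lrp5 had the highest density of the 35, 3.29 per kilobase with 17 matches, and a log2 ratio of -0.21, near that of all genes. Of the other genes called lower, Wnt6 had 2.41 matches per kilobase, Wnt16 0.913 and Fzd1 0.715. Fzd5 had 1.16 per kilobase. Methylation was not measured in these libraries, and a match is not a site.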
